A study of Mus musculus with 9 samples.

Results

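The Hox genes described here are the 33 genes, read by 48 probe sets, that the platform annotation names Hoxa, Hoxb, Hoxc or Hoxd with a number between 1 and 13. They were measured among 18193 annotated genes and 45037 probe sets on 9 expression arrays of mouse embryonic fibroblasts (MEFs), primary cultures grown from embryonic tissue. RNA came from 3 MEF lines, each derived from a female mid-gestation embryo (E12.5) and grown in DMEM. The KO line lacked Oga, the gene of O-GlcNAcase, the Het line kept 1 copy (Oga +/-), and the WT line kept both. O-GlcNAcase is the enzyme that takes the sugar O-GlcNAc off nuclear and cytoplasmic proteins. The embryos came from intercrosses of Oga +/- mice, which descended from a male with a floxed Oga allele (Oga floxed/+, C57B1/6 background) and an MMTV-Cre female. MMTV is a viral promoter best known for activity in mammary epithelium, and the labels do not say whether each line still carried the Cre transgene. Each genotype was 1 line with 3 technical replicate arrays, so every p-value below measures the spread between arrays of a line, and Oga genotype cannot be told apart from any other difference between the 3 embryos. The comparisons ask how Hox transcript levels differed when 1 or both copies of Oga were lost.

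Hox genes encode homeodomain transcription factors that give cells their position along the head to tail axis and along the limbs. In mammals they lie in 4 clusters, and within a cluster the low-numbered genes are active in anterior regions and the high-numbered genes in posterior and distal ones. The high-numbered genes of the A and D clusters also pattern the limb, where the number 13 genes mark the digits and the genital tubercle. Cultured fibroblasts keep the Hox pattern of the body site from which they were taken, so Hox levels differ between fibroblasts of different sites. Silent Hox genes are held by Polycomb group proteins and active ones by trithorax group proteins. In Drosophila the gene of the transferase that adds O-GlcNAc is itself a Polycomb group gene.

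The A cluster was represented by 16 probe sets for 9 genes, the B cluster by 11 for 9, the C cluster by 11 for 7 and the D cluster by 10 for 8. By position, 7 genes were anterior (numbers 1 to 3), 12 central (4 to 8) and 14 posterior (9 to 13). Hoxb8 and Hoxd4 were annotated only together with a neighbour and are not counted among the 33 genes, and Hox genes without a probe set of their own were not analysed here. Values are the deposited log2 signals. They are compared between lines for 1 probe set at a time, never between genes, because probe sets differ in how strongly they bind. A gene with several probe sets is represented by the one with the highest mean. A probe set "passed" at a limma adjusted p under 0.05 over all 45037 probe sets, and was "called" when it also differed by at least 2-fold. In bulk RNA from a culture, fewer cells of a type and less RNA per cell cannot be told apart.

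Oga itself followed the labels. Its most abundant probe set read 6.03, 6.08 and 6.08 on the KO arrays, 11.16 on each Het array, and 11.89, 11.93 and 11.95 on the WT arrays. All 12 fibroblast markers examined were above the low-value limit of 6.22 (the 40th percentile of probe set means) in every line. Over the 48 Hox probe sets, arrays of 1 line correlated at r = 0.995 to 0.999 and arrays of different lines at 0.967 to 0.990. The first Het array was the lowest of the 3 Het arrays for 34 of the 48 Hox probe sets. Without it the numbers of Hox probe sets that passed were 26 for KO against WT, 11 for Het against WT and 25 for KO against Het, close to the 25, 12 and 27 with it.

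Of the 33 Hox genes, 29 were above the low-value limit in the mean over the arrays, and most differed between lines by less than 2-fold. Set against WT, the KO line had slightly higher levels of many central and posterior genes, led by Hoxc5, Hoxd10, Hoxa5, Hoxc6 and Hoxa11, and lower levels of Hoxd8, Hoxc10, Hoxb9 and Hoxa2. The Het line was the lowest of the 3 at the posterior ends of the A and D clusters, where Hoxa13 and Hoxd13 fell against WT. These genes also differed most between KO and Het, and were the only Hox genes called in any comparison.

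**Figure D1:**
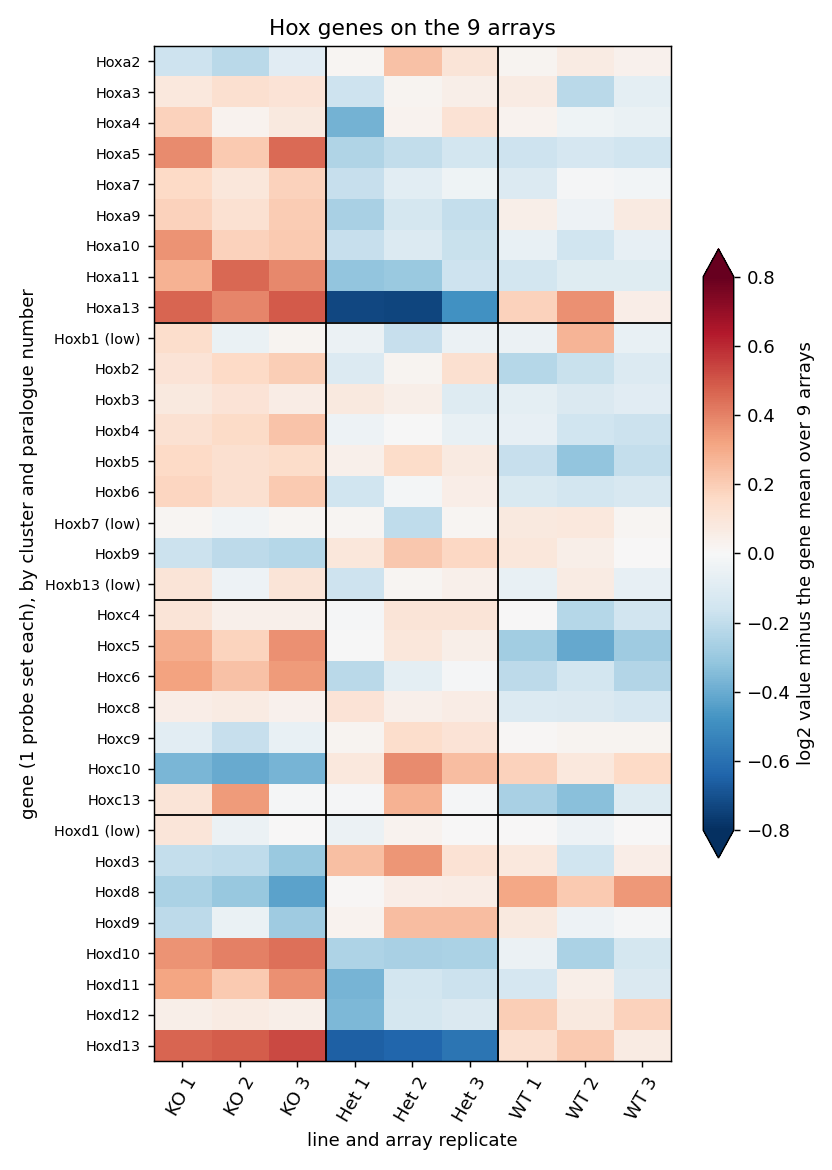
Heat map of the 33 Hox genes on the 9 arrays (columns: KO, Het and WT, 3 arrays each), ordered by cluster and number. Colour is the log2 signal minus the gene's mean over the 9 arrays. Hoxa13 and Hoxd13 show their lowest values on all 3 Het arrays, and Hoxd8 and Hoxc10 theirs on all 3 KO arrays.

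Hoxa13 and Hoxd13, the genes of the distal limb and genital tubercle, gave the largest differences among the Hox genes. The 250 bases before the RefSeq start of each (build GRCm38.p6) are shown because these genes at the ends of different clusters moved together, beside Hoxd10 and Hoxd8 from further along the D cluster, which moved apart from each other. Sequences run 5′ to 3′ on the gene's strand, and capitals mark matches on either strand to the letters TATAAA (a motif of the general factor TBP), CCAAT (of the factor NF-Y), GGGCGG (of the factor Sp1), TTTATG (of the caudal factors Cdx) or CCAATAAA (of the HOX13 proteins, with the NF-Y motif inside it). Hoxa13 lies at chr6:52260881-52261130 on the minus strand, and Hoxd13 at chr2:74667975-74668224, Hoxd10 at chr2:74691641-74691890 and Hoxd8 at chr2:74704365-74704614, all on the plus strand.
Hoxa13: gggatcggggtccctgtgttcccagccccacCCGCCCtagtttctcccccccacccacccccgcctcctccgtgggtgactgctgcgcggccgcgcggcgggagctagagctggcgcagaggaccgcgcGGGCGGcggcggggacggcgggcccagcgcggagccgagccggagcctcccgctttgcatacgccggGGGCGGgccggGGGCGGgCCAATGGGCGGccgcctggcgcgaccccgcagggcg
Hoxd13: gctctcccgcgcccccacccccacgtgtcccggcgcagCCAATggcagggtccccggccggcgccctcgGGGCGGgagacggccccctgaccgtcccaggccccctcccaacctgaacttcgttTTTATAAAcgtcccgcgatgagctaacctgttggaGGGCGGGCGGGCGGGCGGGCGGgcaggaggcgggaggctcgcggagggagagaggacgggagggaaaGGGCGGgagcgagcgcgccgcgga
Hoxd10: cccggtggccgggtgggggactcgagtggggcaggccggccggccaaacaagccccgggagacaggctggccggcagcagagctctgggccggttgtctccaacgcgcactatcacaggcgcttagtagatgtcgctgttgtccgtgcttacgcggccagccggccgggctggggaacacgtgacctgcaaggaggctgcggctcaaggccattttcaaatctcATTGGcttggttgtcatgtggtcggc
Hoxd8: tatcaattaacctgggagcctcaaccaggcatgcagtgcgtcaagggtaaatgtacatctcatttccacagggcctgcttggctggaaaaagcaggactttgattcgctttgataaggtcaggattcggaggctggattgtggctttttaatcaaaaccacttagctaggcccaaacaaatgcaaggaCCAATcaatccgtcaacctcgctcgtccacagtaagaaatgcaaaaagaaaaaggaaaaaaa
The Hoxa13 window was 80.0% G and C, with 35 CpG dinucleotides and 5 Sp1 motifs. That of Hoxd13 was 74.4% G and C, with 31 CpG, 7 Sp1 motifs, of which 5 overlap in a run, and an overlapping pair of TBP motifs on opposite strands. Hoxd10 had 65.6% G and C with 20 CpG, and Hoxd8 44.4% with 6. All 4 windows held an NF-Y motif. Of 32851 promoter windows of this length in the RefSeq table, 32.7% held the Sp1 motif, 33.8% the NF-Y motif, 12.4% the TBP motif, 10.8% the Cdx motif and 1.02% the HOX13 motif. Among the 21 windows of 19 measured Hox genes the counts were 8, 11, 2, 3 and 0. These matches are letters in a window, and the arrays do not show what binds there.

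Hoxa13 read 7.04, 6.97 and 7.07 on the KO arrays, 5.85, 5.84 and 6.09 on the Het arrays, and 6.76, 6.94 and 6.63 on the WT arrays. The Het arrays lay below all others, and below the low-value limit, whereas the KO arrays lay just above the WT arrays. The difference between Het and WT was -0.85 ± 0.088 (log2 ± SE, limma adjusted p = 1.4e-04) and that between KO and Het 1.10 ± 0.088 (limma adjusted p = 9.5e-06). Whether the low Het signal was above the arrays' background was not tested, so no exact fold is given for these. KO and WT differed by 0.25 ± 0.088, which did not pass (limma adjusted p = 0.0592).

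For Hoxd13, the most abundant probe set read 10.05, 10.07 and 10.11 on the KO arrays, 8.93, 8.95 and 9.0 on the Het arrays, and 9.71, 9.79 and 9.65 on the WT arrays. The 3 lines were fully separate, with Het lowest and KO highest. Hoxd13 fell in the Het line by 0.76 ± 0.051 on the log2 scale against WT (1.69-fold, limma adjusted p = 1.3e-05), and was higher by 1.12 ± 0.051 in KO than in Het (2.17-fold, limma adjusted p = 1.8e-07). It was also higher in KO than in WT, by 0.36 ± 0.051 (limma adjusted p = 3.8e-04). A second Hoxd13 probe set read 8.42, 8.29 and 8.30 on the KO arrays, 7.22, 7.08 and 7.30 on the Het arrays, and 8.10, 8.04 and 8.01 on the WT arrays. It gave the same order, with differences of 0.29 (KO against WT), -0.85 (Het against WT) and 1.14 (KO against Het), and it too was called in the last of these (limma adjusted p = 7.8e-07).

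The next genes along these clusters, numbers 10 to 12, help to form the upper and lower segments of the limb. Hoxd10, also known from lumbar motor neurons, read 8.29, 8.33 and 8.37 on the KO arrays, 7.68, 7.67 and 7.68 on the Het arrays, and 7.88, 7.67 and 7.79 on the WT arrays. Every KO array was above all Het and WT arrays, while Het and WT overlapped. Hoxd10 rose by 0.55 ± 0.058 in KO against WT (limma adjusted p = 4.2e-05) and by 0.65 ± 0.058 against Het (limma adjusted p = 1.8e-05). Hoxa11, a gene of the forearm and kidney, read 8.45, 8.63 and 8.55 on the KO arrays, 7.85, 7.87 and 8.0 on the Het arrays, and 8.02, 8.08 and 8.07 on the WT arrays. Het was lowest on every array here, but its difference from WT, -0.15, did not pass (limma adjusted p = 0.111). Hoxa11 rose by 0.48 ± 0.061 in KO against WT (limma adjusted p = 1.5e-04) and by 0.63 ± 0.061 against Het (limma adjusted p = 3.2e-05).

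Hoxd11, the partner of Hoxa11 in the forearm, read 7.73, 7.62 and 7.78 on the KO arrays, 7.04, 7.26 and 7.24 on the Het arrays, and 7.28, 7.46 and 7.30 on the WT arrays. KO was again above every other array. It rose in KO by 0.36 ± 0.077 against WT (limma adjusted p = 0.00467) and by 0.53 ± 0.077 against Het (limma adjusted p = 5.1e-04). Hoxa10, which gives lumbar vertebrae their ribless form, rose by 0.35 against WT and 0.41 against Het (limma adjusted p = 0.00127 and 5.0e-04). Hoxd12 differed in another way: it fell in Het by 0.36 against WT (limma adjusted p = 0.00436), and KO and WT differed by -0.10 (limma adjusted p = 0.329). Hoxa9, known for its part in myeloid leukaemia, fell in Het by 0.22 against WT (limma adjusted p = 0.0142), and its second probe set gave -0.23 (limma adjusted p = 0.0602).

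Over the 7 genes Hoxa10, Hoxa11, Hoxa13 and Hoxd10 to Hoxd13, a grouping chosen after their values were seen, all 7 passed as higher in KO than in Het, with a median of 0.63, where 14.5% of all genes passed as higher. Against WT, 5 passed as higher in KO (median 0.36), where 14.1% of all genes did, and 3 passed as lower in Het (median -0.16), where 12.4% did, while the other 4 Het differences were below 0 without passing. Since the KO-Het and Het-WT comparisons share the Het arrays, these counts are not separate evidence. The plot of the 9 genes named with full values shows 5 of these 7, beside Hoxa5, Hoxc5, Hoxc10 and Hoxd8.

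**Figure D2:**
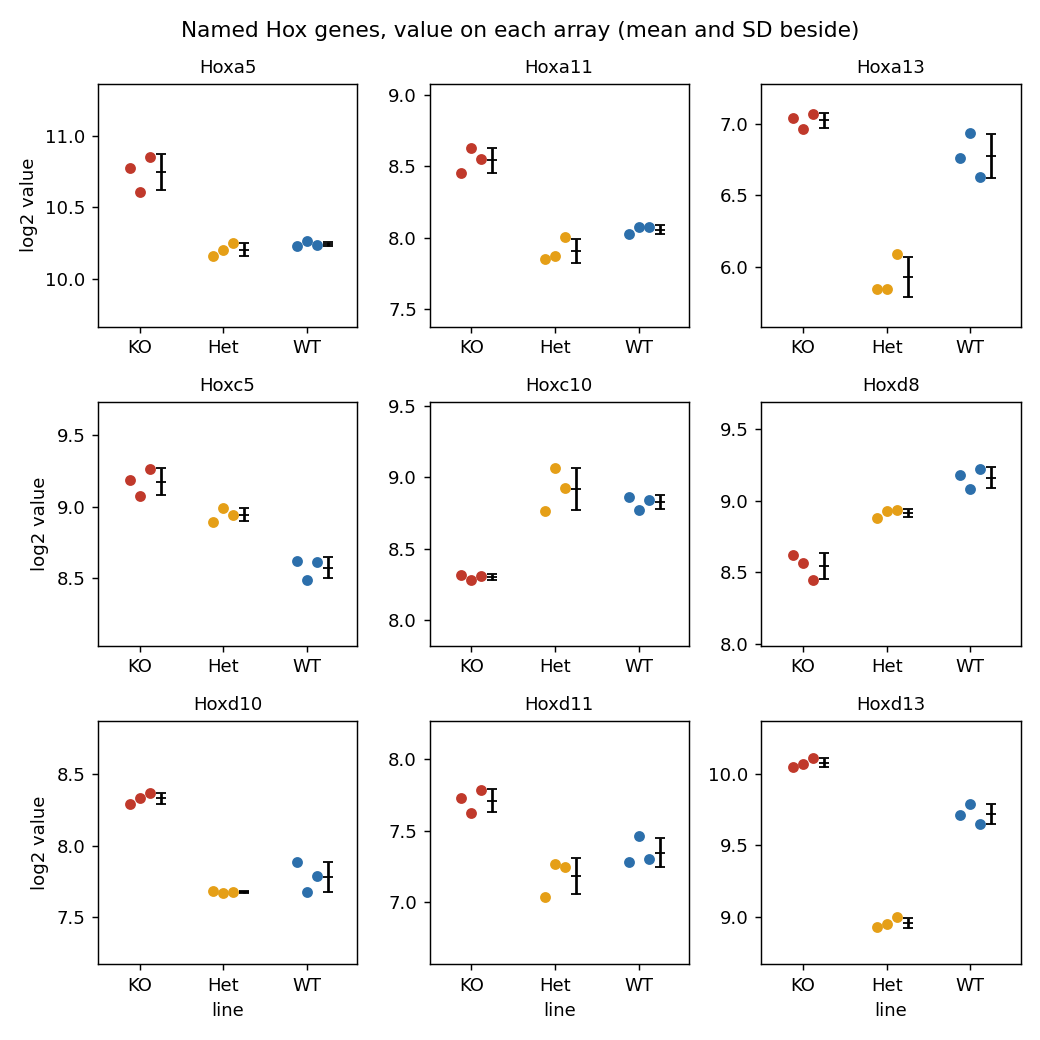
Log2 signal of the 9 Hox genes with the largest differences, on each array (points) with the line mean and SD beside them (n = 3 arrays), KO, Het and WT from left to right in each panel. Het arrays are lowest for Hoxa13 and Hoxd13, KO arrays are highest for Hoxd10, Hoxd11, Hoxa11 and Hoxa5, and KO arrays are lowest for Hoxd8 and Hoxc10.

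Hoxb9, Hoxc9, Hoxc10, Hoxd8 and Hoxd9 did not follow this order. Hoxc10, a gene of the hindlimb level of the spinal cord, read 8.32, 8.28 and 8.31 on the KO arrays, 8.76, 9.06 and 8.93 on the Het arrays, and 8.86, 8.77 and 8.84 on the WT arrays. KO was below all other arrays, and Het and WT overlapped. The gene fell by 0.52 ± 0.071 in KO against WT (1.44-fold, limma adjusted p = 2.6e-04) and by 0.62 ± 0.071 against Het (limma adjusted p = 1.1e-04). Hoxd8, a trunk gene at the centre of its cluster, read 8.62, 8.57 and 8.44 on the KO arrays, 8.88, 8.93 and 8.93 on the Het arrays, and 9.18, 9.08 and 9.22 on the WT arrays. The lines were separate and KO was lowest. Hoxd8 fell in KO by 0.62 ± 0.059 against WT (1.53-fold, limma adjusted p = 2.3e-05) and by 0.37 ± 0.059 against Het (limma adjusted p = 1.0e-03). In Het it fell by 0.25 ± 0.059 against WT (limma adjusted p = 0.0147), but its second probe set gave 0.00 for that comparison (limma adjusted p = 0.965) and -0.46 for KO against WT (limma adjusted p = 1.8e-04).

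The number 9 genes, which shape the ribbed part of the trunk, divided by cluster. Hoxb9 fell in KO by 0.25 against WT (limma adjusted p = 0.00408) and by 0.36 against Het (limma adjusted p = 4.3e-04). Hoxc9 and Hoxd9 fell by 0.20 and 0.35 in KO against Het (limma adjusted p = 0.0171 and 0.00655), and their differences from WT, -0.13 and -0.19, did not pass. Hoxa9 was instead higher in KO than in Het, by 0.37 (limma adjusted p = 5.1e-04), though its second probe set did not pass for that comparison (0.15, limma adjusted p = 0.203). Hoxc13, a gene of hair and nail, rose by 0.38 in KO against WT (limma adjusted p = 0.0211). Its WT mean, 6.11, was below the low-value limit, so the size of this difference is uncertain.

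The central genes set the identity of the neck and chest. All 3 measured genes numbered 5, a position singled out after its values were seen, passed as higher in KO than in WT. Their median was 0.50, and 14.1% of all genes passed as higher. Hoxc5 read 9.19, 9.08 and 9.26 on the KO arrays, 8.90, 8.99 and 8.94 on the Het arrays, and 8.62, 8.49 and 8.62 on the WT arrays. Lines were separate, with Het between KO and WT. Hoxc5 rose by 0.60 ± 0.061 in KO (1.52-fold, limma adjusted p = 3.4e-05) and by 0.37 ± 0.061 in Het (limma adjusted p = 0.00206), both against WT. Its other probe sets were higher in KO by 0.29 and 0.20 without passing (limma adjusted p = 0.0927 and 0.06). In Het against WT they gave -0.11 and 0.13 (limma adjusted p = 0.538 and 0.245), so the rise in Het rests on 1 of 3 probe sets.

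Hoxa5, needed for the lung and airway, read 10.78, 10.61 and 10.85 on the KO arrays, 10.16, 10.20 and 10.25 on the Het arrays, and 10.23, 10.26 and 10.24 on the WT arrays. All KO arrays were highest, and Het and WT overlapped. Hoxa5 rose by 0.50 ± 0.064 in KO against WT (1.42-fold, limma adjusted p = 1.6e-04), and its second probe set by 0.30 (limma adjusted p = 0.00331). That second probe set carries the array maker's suffix for probes that can also bind related transcripts. Hoxb5, known from the nerve cells of the gut, rose in KO by 0.37 (limma adjusted p = 3.7e-04) and in Het by 0.32 (limma adjusted p = 0.00216) against WT.

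Hoxc6, a gene of the forelimb level, was measured by 3 probe sets, which rose in KO against WT by 0.50, 0.41 and 0.24 (limma adjusted p = 1.5e-04, 0.00225 and 0.00243). The first of them carries the array maker's suffix for probes that can also bind related transcripts. In Het against WT only the third passed (0.21, limma adjusted p = 0.01), and the others gave 0.10 and -0.02. Hoxb6 and Hoxb4, the second of these studied for the growth of blood stem cells, each rose in KO by 0.30 against WT (limma adjusted p = 0.00301 and 0.00121). A second Hoxb4 probe set gave 0.15 and did not pass (limma adjusted p = 0.076). That probe set passed as higher in Het against WT (0.22, limma adjusted p = 0.0186), where the first did not (0.10, limma adjusted p = 0.199). Hoxa7 rose by 0.19 (limma adjusted p = 0.0258). Hoxc8, a gene of the chest vertebrae, rose by 0.17 in KO and 0.19 in Het (limma adjusted p = 0.0134 and 0.0113), both against WT. Hoxa4 and Hoxc4 differed from WT in KO by 0.12 and 0.19 without passing (limma adjusted p = 0.478 and 0.0517).

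The anterior genes act in the hindbrain and pharyngeal arches. In KO against WT 3 of the 7 passed, a share of 42.9%, against 34.8% of all genes. Hoxb2, a gene of the facial nerve region, rose in KO by 0.33 against WT (limma adjusted p = 0.00324), and Hoxb3 by 0.18 (limma adjusted p = 0.0341). Hoxa2, which sets the identity of the second arch, fell by 0.20 in KO against WT (limma adjusted p = 0.0358) and by 0.27 against Het (limma adjusted p = 0.00772). Hoxd3 fell by 0.47 in KO against Het (limma adjusted p = 0.00134), with KO -0.22 and Het 0.24 from WT, neither of which passed. The Hoxd3 mean in KO, 6.13, was below the low-value limit, so the size of its KO differences is uncertain. The most abundant probe set of Hoxa3, a gene of thymus and parathyroid, gave 0.18, 0.05 and 0.14 for KO against WT, Het against WT and KO against Het, and none passed. Another Hoxa3 probe set, below the low-value limit, passed as lower in KO against Het (-0.45, limma adjusted p = 0.00592). Hoxb1, Hoxb7, Hoxb13 and Hoxd1 lay below the low-value limit in the mean over the arrays, with values from 3.83 to 5.62, and differed by -0.06 to 0.08 in KO against WT and by -0.15 to 0.01 in Het against WT. None of these 4 passed in any comparison.

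In all, 25 of the 48 Hox probe sets passed in KO against WT, 20 as higher and 5 as lower, where 28.9% of all probe sets passed (14.2% as higher, 14.8% as lower). No Hox probe set was called there (0 by limma, against 1.86% of all probe sets), though 36 had an unadjusted p under 0.05. The differences ran from -0.62 to 0.60 with a median of 0.17, and for 27 probe sets all KO arrays were above all WT arrays and for 9 below. Across all probe sets 40.7% did not overlap in 1 direction or the other, and the median was 0.0058. Among probe sets above the low-value limit, 25 of 40 Hox (62.5%) and 41.1% of all passed. Since the Hox genes share chromosomal regions and regulators, the members are not independent of each other.

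Het against WT gave 12 Hox probe sets that passed, 6 as higher and 6 as lower, where 21% of all probe sets passed (10.1% as higher, 10.9% as lower). The Hox share above the low-value limit was 30.0%, against 29.9% of all, so the number that passed was at the background. None was called (0 by limma, against 0.246% of all), and 21 had an unadjusted p under 0.05. All Het arrays were above all WT arrays for 12 Hox probe sets and below them for 10, where 36.8% of all probe sets did not overlap. The median difference was 0.03, and the range, -0.85 to 0.37, reached furthest on the lower side through Hoxa13 and Hoxd13.

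KO against Het gave 27 Hox probe sets that passed, 18 as higher and 9 as lower, where 26.6% of all passed (13.1% as higher, 13.5% as lower). The 3 that were called, all higher, were that of Hoxa13 and both of Hoxd13. They made up 6.25% of the Hox probe sets, where 1.05% of all probe sets were called. Differences ran from -0.62 to 1.14 with a median of 0.12. For 21 Hox probe sets the KO arrays were all above the Het arrays and for 9 all below, where 39.5% of all probe sets did not overlap. Above the low-value limit, 26 of 40 Hox probe sets (65.0%) and 39.5% of all passed.

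Counted by gene and cluster, KO against WT gave 4 higher and 1 lower of 9 in the A cluster, 5 and 1 of 9 in B, 4 and 1 of 7 in C, and 3 and 1 of 8 in D, where 34.8% of all genes passed (14.1% as higher, 20.7% as lower). The medians were 0.19, 0.18, 0.19 and -0.03, against -0.02 over all genes. In Het against WT, where 19.8% of all genes passed (7.33% as higher, 12.4% as lower), the A cluster had 2 lower (median -0.06) and the D cluster 3 lower (median -0.13), and neither had a higher one. The B cluster had 1 higher (median 0.10) and the C cluster 2 higher (median 0.19), and neither had a lower one. Counted by probe set, the B and C clusters each had 3 higher of 11, where 10.1% of all probe sets passed as higher. Between KO and Het, where 32.1% of all genes passed (14.5% as higher, 17.6% as lower), 6 were higher and 1 lower in A, 2 and 1 in B, 2 and 2 in C, and 4 and 3 in D.

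By position, the KO line had 2 higher and 1 lower of the 7 anterior genes, 8 and 1 of the 12 central genes and 6 and 2 of the 14 posterior genes against WT, with medians of 0.03, 0.25 and 0.20. Over all genes 34.8% passed in this comparison, 14.1% as higher and 20.7% as lower. In Het against WT the anterior genes had no member that passed at the probe set representing each gene (0 of 7 by limma). A second Hoxb3 probe set, above the low-value limit, passed there as higher (0.29, limma adjusted p = 0.0196). The central genes had 3 higher and 1 lower in that comparison, and the posterior genes 4 lower. Over all genes 19.8% passed in Het against WT, 7.33% as higher and 12.4% as lower. The 4 posterior genes were Hoxa9, Hoxa13, Hoxd12 and Hoxd13. The difference between clusters or positions was not tested, because the genes of a cluster are not replicates.

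**Figure D3:**
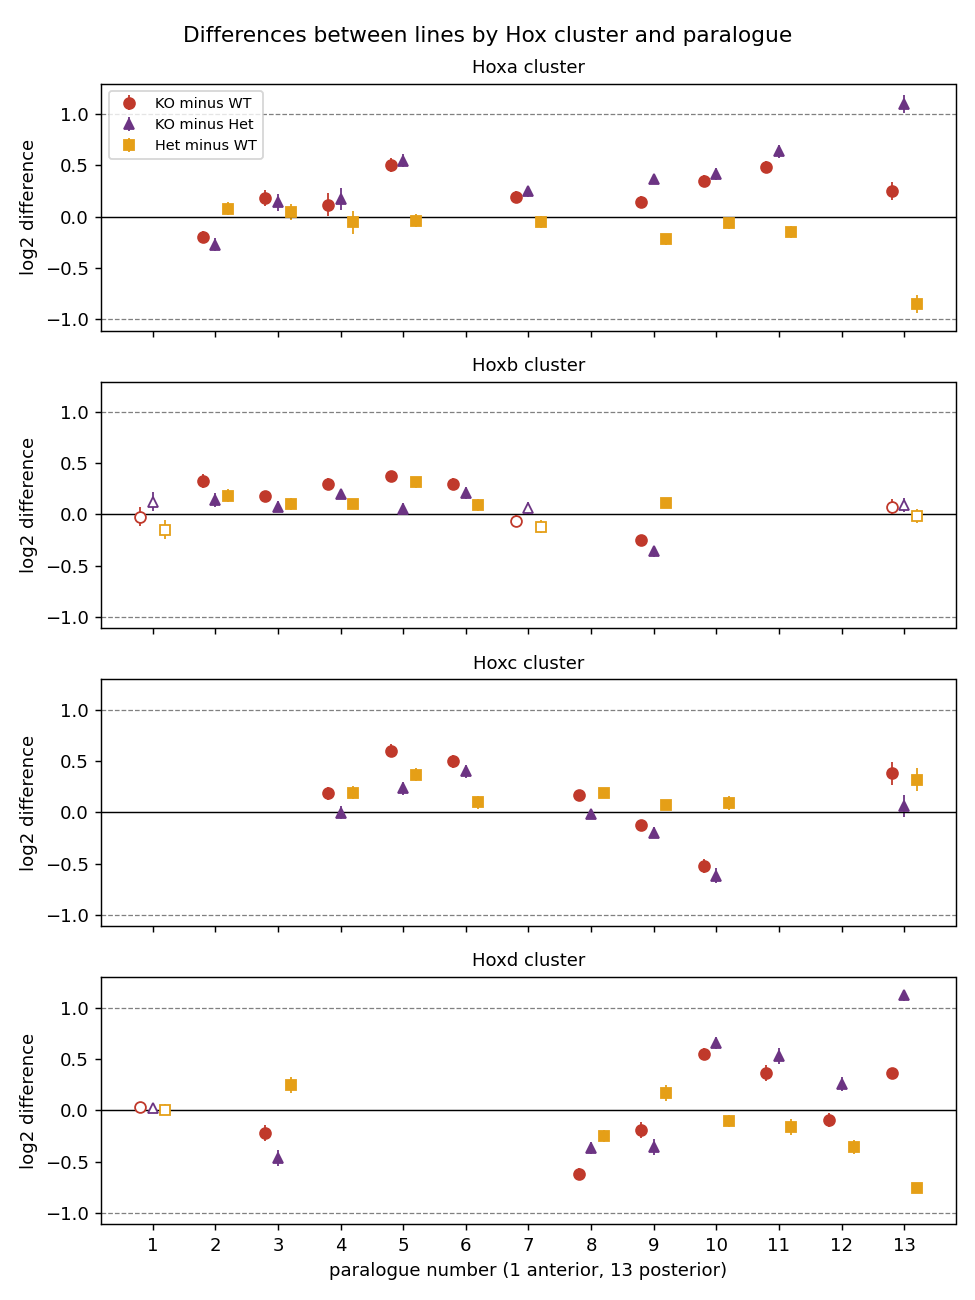
Log2 difference of each Hox gene between lines, by number within its cluster, for KO minus WT (circles), KO minus Het (triangles) and Het minus WT (squares), with standard errors from limma. Open symbols are genes below the low-value limit, and dashed lines mark 2-fold. Within the A and D clusters the Het minus WT points at number 13 are the lowest, at -0.85 and -0.76.

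The Het mean lay between those of KO and WT for 11 of the 33 Hox genes (33.3%), against 42.0% of all genes. Het had the lowest mean for 14 Hox genes (42.4%, against 27.6% of all genes), among them 7 of the 9 A cluster genes and Hoxd10 to Hoxd13. Its mean was the highest for 8 (24.2%, against 30.4%), among them 4 of the 7 C cluster genes, Hoxc4, Hoxc8, Hoxc9 and Hoxc10. These are orders of means and include differences that did not pass.

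Some genes had several probe sets that read different parts of the transcripts. Of the 9 Hox genes with more than 1 probe set above the low-value limit, all probe sets had the same sign for 8 in KO against WT, 5 in Het against WT and 7 in KO against Het. In none of the 9 did probe sets that passed point in opposite directions, which could be seen only where more than 1 of them passed. In KO against WT these genes were Hoxa5, Hoxc6, Hoxd8 and Hoxd13, and in Het against WT Hoxd13 alone. In KO against Het they were Hoxa5, Hoxc5, Hoxc6, Hoxd8 and Hoxd13.

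Transcripts made within the clusters other than the Hox genes were covered by 3 of 17 listed. Hoxa11os, the antisense transcript of Hoxa11, read 7.88, 7.88 and 7.90 on the KO arrays, 7.23, 7.33 and 7.34 on the Het arrays, and 7.26, 7.43 and 7.26 on the WT arrays. KO was above every other array, as for Hoxa11 itself. It rose in KO by 0.57 against WT (limma adjusted p = 3.6e-05) and by 0.59 against Het (limma adjusted p = 4.3e-05). Whether its probes read only the antisense strand was not tested. Hoxb5os and Hoxd3os1 fell in KO by 0.22 and 0.38 against Het (limma adjusted p = 0.0359 and 0.0134), and their differences from WT did not pass.

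The genes next to the clusters were examined to see how far the differences reached. Evx1, a homeobox gene beside Hoxa13, read 6.65, 6.70 and 6.78 on the KO arrays, 5.95, 5.82 and 6.07 on the Het arrays, and 5.92, 6.14 and 5.75 on the WT arrays. KO was highest, and the Het and WT means were below the low-value limit. Evx1 rose in KO by 0.77 ± 0.096 against WT (limma adjusted p = 1.4e-04) and by 0.77 ± 0.096 against Het (limma adjusted p = 2.1e-04). With Het and WT below the limit, the size of these differences is uncertain. Evx2, the matching gene beside Hoxd13, gave -0.03 for KO against WT, 0.01 for Het against WT and -0.04 for KO against Het, and none passed. Lnpk and Tax1bp1 were lower in Het than in WT (-0.24 and -0.28, limma adjusted p = 0.0371 and 0.0021). Both were higher in KO than in Het (0.36 and 0.38, limma adjusted p = 0.00381 and 2.0e-04). Snx10 and Skap2 passed as lower than WT in KO (-0.29 and -0.23) and in Het (-0.44 and -0.20). Snx11 passed as higher than WT in KO and Het (0.20 and 0.26). Among all 19 genes near the clusters, 2 were higher and 3 lower in KO against WT (26.3%, against 34.8% of all genes), and 1 was higher and 5 lower in Het against WT (31.6%, against 19.8%). Between KO and Het 4 were higher and 1 lower (26.3%, against 32.1%).

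Hox proteins bind DNA together with the TALE cofactors of the Pbx, Meis and Pknox families. Of the 8 measured of 9 listed cofactors, Meis2 rose by 0.21 and Pknox2 fell by 0.29 in KO against WT (limma adjusted p = 0.00845 and 0.00346). Meis2 also rose in Het, by 0.20 (limma adjusted p = 0.0158). None was called in any comparison. Over all probe sets the called share was 1.86% in KO against WT, 0.246% in Het against WT and 1.05% in KO against Het.

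Polycomb group genes, which keep silent Hox genes silent, passed in both directions. Of 26 measured of 28 listed, 5 were higher and 6 lower in KO against WT (42.3%, against 34.8% of all genes, median -0.07), and 3 higher and 4 lower in Het against WT (26.9%, against 19.8%, median -0.02). These shares were near those of all genes. Eed, a core subunit of the complex that methylates histone H3, read 11.04, 11.01 and 10.97 on the KO arrays, 10.46, 10.41 and 10.50 on the Het arrays, and 10.51, 10.53 and 10.56 on the WT arrays. It was highest in KO, by 0.48 ± 0.047 against WT (limma adjusted p = 2.8e-05). Cbx6, a chromobox protein of the complex that reads this mark, fell in KO by 0.54 ± 0.054 against WT (limma adjusted p = 3.0e-05), and Phc1, a partner in the same complex, by 0.39 (limma adjusted p = 1.6e-04). In Het, Rnf2, the ubiquitin ligase of that complex, fell by 0.36 against WT (limma adjusted p = 0.00121).

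Trithorax group genes and histone demethylases, which keep Hox genes active, gave 1 higher and 4 lower of 16 measured in KO against WT (31.2%, against 34.8% of all genes, median 0.02), and 5 higher and 1 lower in Het against WT (37.5%, against 19.8%, median 0.08). All 16 were above the low-value limit, where 44.8% of genes passed in KO against WT and 25.7% in Het against WT. Psip1, a chromatin protein that tethers the methyltransferase Kmt2a, fell in KO by 0.49 ± 0.058 against WT (limma adjusted p = 9.9e-05). Dpy30, a subunit of these methyltransferase complexes, fell by 0.30 (limma adjusted p = 0.00303). Kmt2a itself rose in Het by 0.32 against WT (limma adjusted p = 0.00663), as did the demethylase Kdm6b (0.32, limma adjusted p = 0.0103). In KO against Het, where 32.1% of all genes passed, 5 Polycomb genes were higher and 6 lower, and 1 trithorax gene was higher and 6 lower. The Polycomb and trithorax lists had no called member in any of the 3 comparisons. Of all probe sets 1.86% were called in KO against WT, 0.246% in Het against WT and 1.05% in KO against Het. For lists this short, an absence of calls is near the background.

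Retinoic acid is a known inducer of anterior and central Hox genes. Of 16 measured of 18 listed genes of its pathway, 6 were higher and 5 lower in KO against WT (68.8%, against 34.8% of all genes), with a median of -0.01. All 16 were above the low-value limit, where 44.8% of genes passed. The retinoic acid making enzyme Aldh1a2 read 9.29, 9.39 and 9.36 on the KO arrays, 8.41, 8.45 and 8.52 on the Het arrays, and 8.41, 8.36 and 8.44 on the WT arrays. It stood apart in KO, with a rise of 0.95 ± 0.051 against WT (limma adjusted p = 3.0e-07). Its relative Aldh1a3 rose in KO by 0.93 (limma adjusted p = 5.9e-06) and Rdh10, which makes their substrate, by 0.50 (limma adjusted p = 2.6e-05). Rarb, a receptor gene that retinoic acid induces, rose by 0.30 (limma adjusted p = 0.0029). Cyp26a1, the gene of a retinoic acid degrading enzyme that retinoic acid also induces, fell by 0.30 (limma adjusted p = 0.0189), and the binding proteins Crabp1 and Crabp2 fell by 0.60 and 0.40 (limma adjusted p = 3.5e-04 for each). Aldh1a1 fell in Het by 0.57 against WT (limma adjusted p = 3.1e-05). KO against Het gave 5 higher and 5 lower genes of this pathway (62.5%, against 32.1% of all genes and 42.6% of those above the limit).

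Of 12 measured factors known to act upstream of Hox genes, Egr2 and Hmga2 passed in KO against WT and the other 10 did not. This share, 16.7%, was below the 34.8% of all genes that passed. Egr2, which switches on Hoxa2 and Hoxb2 in the hindbrain and is also induced by serum, read 9.36, 9.30 and 9.42 on the KO arrays, 8.32, 8.26 and 8.36 on the Het arrays, and 8.23, 8.21 and 8.28 on the WT arrays. It was called in KO against both WT (1.12 ± 0.051, limma adjusted p = 8.3e-08) and Het (1.05, limma adjusted p = 2.7e-07). Hoxb2 was higher and Hoxa2 lower in the same KO line, and the part of Egr2 in these differences was not tested. Hmga2, a chromatin protein of embryonic cells, rose in KO by 0.99 against WT (limma adjusted p = 3.0e-07). It was called in KO against Het (1.01, limma adjusted p = 4.8e-07). The caudal gene Cdx2 did not pass, and Cdx1 and Cdx4 lay below the low-value limit.

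**Figure D4:**
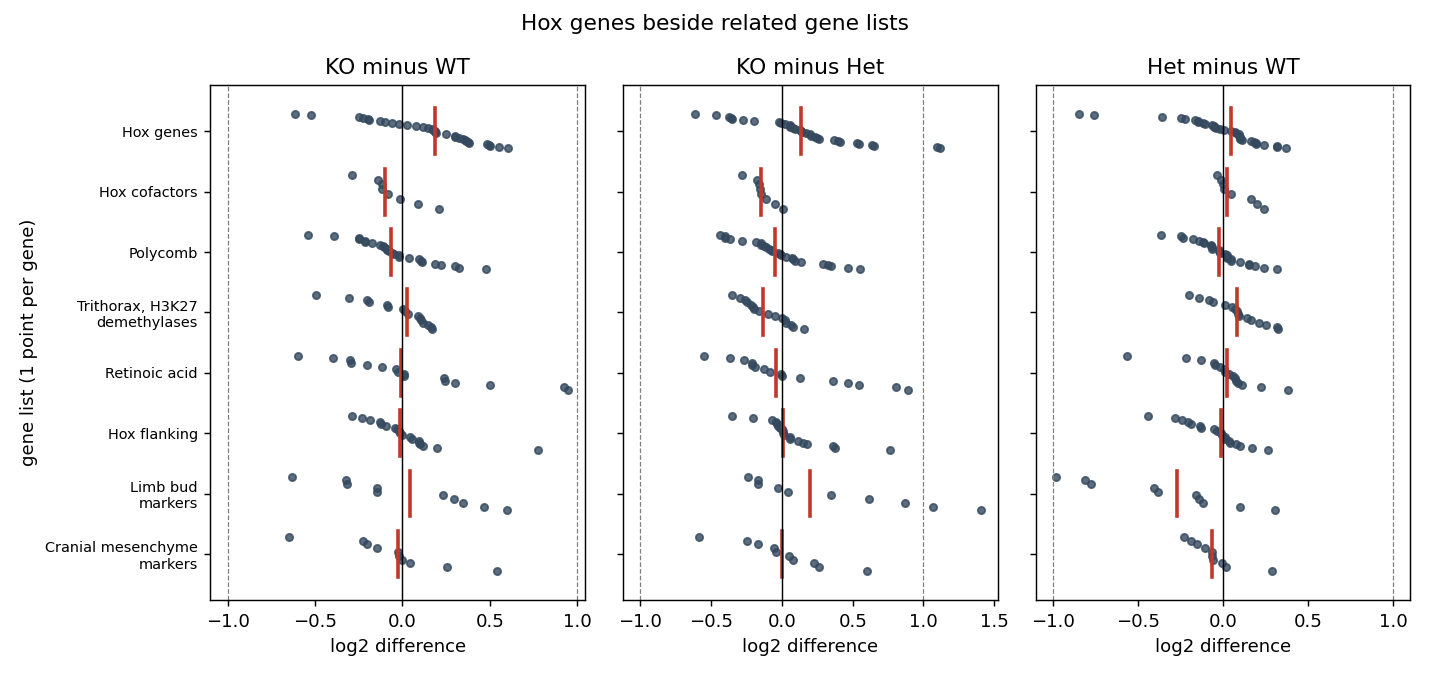
Log2 differences of the genes in the Hox list and in 7 lists of related genes and markers, 1 point per gene with the list median as a red bar, for KO minus WT, KO minus Het and Het minus WT. Dashed lines mark 2-fold. The medians of the Polycomb (-0.07) and trithorax (0.02) lists in KO minus WT lie near 0, beside 0.18 for the Hox genes.

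Because Hox levels in fibroblasts vary with body site, markers of other tissues were read beside them. Limb bud markers were divided. Of 10, 1 was higher and 5 lower in Het against WT, with a median of -0.27, where 7.33% of all genes passed as higher and 12.4% as lower. In KO against Het 5 were higher and 2 lower, where 14.5% of all genes passed as higher and 17.6% as lower. Lhx9, a gene of limb outgrowth, read 9.63, 9.65 and 9.63 on the KO arrays, 8.28, 8.10 and 8.32 on the Het arrays, and 9.07, 9.03 and 9.02 on the WT arrays. Tbx4, a gene of the hindlimb, read 8.62, 8.57 and 8.60 on the KO arrays, 7.35, 7.62 and 7.63 on the Het arrays, and 8.38, 8.24 and 8.28 on the WT arrays. Both were lowest in Het and highest in KO, and both were called in KO against Het (1.40 and 1.07, limma adjusted p = 1.2e-07 and 3.7e-06). Hand2, a gene of the posterior limb bud, was also lowest in Het (-0.98 against WT, limma adjusted p = 6.4e-06) but was lower in KO than in WT (-0.63, limma adjusted p = 1.7e-05). Other members went another way: the hindlimb gene Pitx1 and Shox2 were lower in KO than in Het (-0.24 and -0.17, limma adjusted p = 0.0318 and 0.0333), and Grem1 was higher in Het than in WT (0.31, limma adjusted p = 0.0183). The forelimb gene Tbx5 did not pass in any comparison. The summed linear signal of the 10 genes was 4318 to 4381 on the KO arrays, 3166 to 3304 on the Het arrays and 4008 to 4156 on the WT arrays. Their part in the Hox differences was not tested.

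Markers of cranial mesenchyme, where Hox genes are silent in the embryo, summed to 4286 to 4474 on the KO arrays, 4956 to 5225 on the Het arrays and 4464 to 4631 on the WT arrays. Most of that sum was 1 gene, Foxd1, with means of 11.63 in KO, 11.88 in Het and 11.59 in WT on the log2 scale. The mean log2 signal over the 10 measured genes was 6.82 to 6.85 on the KO arrays, 6.81 to 6.82 on the Het arrays and 6.85 to 6.91 on the WT arrays. Among them Dlx1, Dlx6, Alx1, Alx4 and Otx2 were below the low-value limit in every line. The cultures also differed in other cell types. All 14 macrophage markers passed as lower in KO than in WT, where 20.7% of all genes did. All 14 were called, where 1.86% of all probe sets were. Their sums were 16489 to 17399 on the KO arrays, 46218 to 48876 on the Het arrays and 57538 to 59255 on the WT arrays. Of 11 skeletal muscle markers, 10 passed as higher in KO than in WT, where 14.1% of all genes did. Their sums were 4878 to 4984 on the KO arrays, 2991 to 3276 on the Het arrays and 2028 to 2106 on the WT arrays. Among the 11, Myod1, Myf5 and Pax7 stayed below the low-value limit in every line. Fibroblast markers summed to 162679 to 168643 on the KO arrays, 172373 to 173051 on the Het arrays and 176324 to 177216 on the WT arrays. Of the 12, 6 passed as lower in KO against WT, where 20.7% of all genes did. Among the 6 were the receptor Pdgfra (-2.55, limma adjusted p = 6.0e-09, called) and the matrix protein Dcn (-0.93, limma adjusted p = 2.5e-07). The part of these cells in the Hox differences was not tested.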

How the data were processed

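Total RNA (Trizol, DNase) was labelled with biotin as cRNA for Affymetrix arrays, per the labels' protocols. The values deposited by the authors for 45101 probe sets were taken to be log2 from their range of 3.25 to 15.1. The submitters' processing notes name GCOS and Partek, without versions. How the values were background corrected and normalized was not given in the sources used here. Medians per array were 6.87 to 6.95, and no further normalization was applied.

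The 64 control probe sets were left out. Symbols came from the platform annotation, and all 48 Hox entries matched the RefSeq gene table (GRCm38.p6) with 0 symbols changed. All 45037 probe sets were fitted with limma 3.58.1 (lmFit, eBayes) in R 4.3.3, with 1 mean per line and all 9 arrays, and p-values were adjusted by Benjamini-Hochberg over all of them. The steps were tested on simulated data. Hox genes were named with all array values when called, or when passing with an absolute log2 difference of at least 0.5. The members, lists and rules were chosen with earlier results of these data known. Alternatives covered normalization, filters, other ways to choose probe sets, fold minimums, variance models, a replicate block and each array left out. Replicate numbers did not pair the arrays: deviations of same-numbered arrays correlated at -0.11 to 0.23 over 9 pairs. Precision is limited by the few arrays and the single line per genotype. Figures used Python 3.11.15 and matplotlib 3.10.9.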

Additional observations from a re-analysis of the deposited data

How the results depend on the processing

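The number of Hox probe sets that passed was 25 for KO against WT and stayed between 22 and 26 with 1 array left out and between 24 and 31 under other settings. For Het against WT the number was 12, with 9 to 13 and 12 to 17, and for KO against Het 27, with 23 to 27 and 20 to 27. Settings that left out the lowest 40% or 60% of probe sets kept only 40 or 30 of the 48 Hox probe sets. The 17 for Het against WT was thus of 40, and the 20 for KO against Het of 30. Quantile normalization changed the split of higher and lower members in Het against WT to 9 and 6, where the deposited values gave 6 and 6. Over the lists of related genes it gave 16 and 8 there, and median centring 8 and 16, where the deposited values gave 11 and 11. In KO against Het the lists gave 18 and 30 with quantile normalization and 22 and 16 with centring, where the deposited values gave 18 and 22. With the replicate block the numbers were 24, 13 and 27. Called members stayed at 0 for KO against WT and Het against WT at the 2-fold minimum. For KO against Het there were 3 with each array left out and 2 when the lowest 60% of probe sets were left out, which drops Hoxa13. A 1.5-fold minimum gave 2, 3 and 6 called members in KO against WT, Het against WT and KO against Het. Of 474 alternative values for 30 named results, 464 kept their direction and side of the threshold, 5 no longer passed, 4 newly passed and 1 reversed. The last was Hoxa5 in Het against WT, which did not pass and was -0.04 with the deposited values and 0.0052 with quantile normalization. Hoxc5 in KO against Het lost its pass without KO replicate 1 or 3 or Het replicate 1 (limma adjusted p = 0.0502, 0.0614 and 0.0588), and Hoxd8 in Het against WT without Het replicate 1 or WT replicate 3 (limma adjusted p = 0.0505 and 0.0535). Hoxa13 in KO against WT passed without WT replicate 2 (limma adjusted p = 0.0139) or Het replicate 3 (limma adjusted p = 0.0395), or with the lowest 40% of probe sets left out (limma adjusted p = 0.0351). Hoxa11 in Het against WT passed with the lowest 60% left out (limma adjusted p = 0.0413). The cause of these changes was not tested. With 1 line per genotype, no setting can show the spread between embryos.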

Other observations

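Hoxd4 and Hoxb8 were read only by probe sets annotated to 2 genes. A probe set of Hoxd4 or Hoxd3 averaged 7.31 in KO, 7.76 in Het and 7.68 in WT arrays, and was lower in KO by a log2 difference of -0.37 against WT and -0.45 against Het (limma adjusted p = 1.6e-04 and 5.4e-05). A second one for the same genes gave -0.42 and -0.34 (limma adjusted p = 0.00258 and 0.00939). The direction is that of the Hoxd3 and Hoxd8 probe sets between KO and Het. The probe set of Hoxb8 or Hoxb7 did not pass in any comparison, with -0.10 for KO against WT and -0.10 for Het against WT.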
